A study of Mus musculus with 15 samples.

Results

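The antiviral interferon-stimulated genes are genes that cells switch on when interferon reaches them, and whose products sense, degrade or hold back viral nucleic acids and proteins. A named list of 45 genes was taken, out of 54838 genes in the files, by matching Ensembl identifiers to mouse symbols. The list holds gene names and no threshold on a measured value, and it was drawn up with earlier results of these data known. All 45 were found under 1 identifier each and all 45 passed the filter on low counts in every comparison. By role they comprise 5 nucleic acid sensors, 5 transcription factors, 7 genes of ISG15 and related ubiquitin-like conjugation, 4 tetratricopeptide (Ifit) genes, 5 genes of the OAS family, 7 genes of Mx, viperin and other restriction factors, 4 genes of ADP-ribosylation and 8 other interferon-induced genes.

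RNA was sequenced from 5 groups of mouse cells with 3 libraries each. Cells of 4T1, a mammary carcinoma line derived from a BALB/c mouse, came from culture in medium with 10% serum (in vitro) or were recovered from BALB/c lungs 7 days after injection into the tail vein (in vivo). Lung epithelial cells, whose sample titles name the surface protein EpCAM, were sorted by flow cytometry from lungs 7 days after tail-vein injection of 800000 4T1 cells that the design text calls labeling cells. Both the distal and the niche group carry the treatment label control, and the third epithelial group, from the niche, carries the label shSox9. All epithelial groups, the distal one included, thus came from animals that had received tumour cells, and each of their libraries pools 5 lungs. Which cells carried the hairpin against Sox9 is not stated in the labels. The labels do not tell whether the 3 libraries of a 4T1 group stem from independent cultures or mice. The p-values of 4T1 comparisons therefore cover only how far these libraries differ, and that spread may be technical.

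Type I interferons bind the Ifnar1 and Ifnar2 receptor chains and act through Jak1 and Tyk2 on a complex that holds Stat2 and Irf9 and binds the interferon-stimulated response element (ISRE) of target promoters. Interferon-gamma binds Ifngr1 and Ifngr2 and acts on the gamma-activated site (GAS), among others in the promoter of Irf1. In lung, both epithelial cells and leukocytes respond to interferons, and some tumour cells carry a raised level of these genes without infection.

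Promoter windows, from 250 bases before to 50 bases after a transcription start in RefSeq on mouse build GRCm38.p6, were at hand for 36 of the 45 genes (not Dhx58, Zbp1, Usp18, Oas2, Mx1, Mx2, Parp9, Parp14 or Rtp4). Both strands were searched for an ISRE core, spelled GAAANN directly followed by GAAA, and for a GAS core, spelled TTCNNNGAA. An exact ISRE core stood in a window of 12 of the 36 genes (33.3%), against 3.99% of all 27025 genes with such a window, and a GAS core in 8 of 36 (22.2%), against 9.55% of all these genes. The 12 were Ifih1, Ddx58, Isg15, Oas3, Oas1a, Bst2, Stat2, Rsad2, Eif2ak2, Ifit3, Ifit3b and Ifit1, and the 8 were Oas1a, Isg20, Bst2, Irf8, Irf1, Ifi35, Eif2ak2 and Ifit2. The 6 stretches below are shown as examples, 5 with ISRE cores and Irf1 with its GAS core. They run 5′ to 3′ on the strand of the gene, with the matching core letters in capitals, and the ISRE core read on the opposite strand is TTTCNN followed by TTTC.
Isg15, chr4:156200850-156200921, minus strand: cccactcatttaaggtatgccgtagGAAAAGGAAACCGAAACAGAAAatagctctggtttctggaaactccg
Ifit1, chr19:34640760-34640838, plus strand: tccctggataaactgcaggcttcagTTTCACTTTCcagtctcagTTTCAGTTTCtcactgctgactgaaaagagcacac
Ifit3, chr19:34583348-34583441, plus strand: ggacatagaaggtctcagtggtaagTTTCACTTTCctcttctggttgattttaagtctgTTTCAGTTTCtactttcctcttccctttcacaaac
Oas1a, chr5:120907526-120907570, minus strand: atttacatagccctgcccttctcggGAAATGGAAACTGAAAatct
Bst2, chr8:71537562-71537627, minus strand: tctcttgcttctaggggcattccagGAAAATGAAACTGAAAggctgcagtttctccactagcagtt
Irf1, chr11:53769899-53769957, plus strand: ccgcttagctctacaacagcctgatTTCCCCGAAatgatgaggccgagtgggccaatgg

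The cores of Isg15, Oas1a and Bst2 follow each other so closely that they share bases, with 3 overlapping matches in Isg15 and 2 each in Oas1a and Bst2. Ifit1 and Ifit3 hold 2 separate cores each, and the same 94 bases as in Ifit3 stand before Ifit3b, at chr19:34607744-34607837. In Bst2 a GAS core, TTCCAGGAA, overlaps the first ISRE core. A match describes letters only and is no measured binding site.

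Libraries held 15907316 to 30421705 counts, and levels below are counts per 1000000 counts of a library (CPM) after TMM scaling over all 15 libraries unless TPM, a value per transcript length, is named. Mitochondrially encoded genes took 0.672% to 1.98% of counts over all libraries. In order of replicate, Sox9 stood at 5.63, 6.41 and 6.83 CPM in distal, 61.6, 57.1 and 32.8 CPM in niche and 84.4, 60.1 and 36.9 CPM in niche shSox9 libraries, so niche libraries labelled shSox9 did not have less of it. The log2 fold change between both niche groups was 0.26 (SE 0.27, adjusted p = 0.548) by edgeR, and the group name only repeats the label. In vivo 4T1 cells had 313, 360.0 and 262 CPM of Sox9. A panel of genes abundant in 4T1 cells, described below, stood at 22.7%, 26.6% and 13.1% of its in vivo level in niche libraries. In niche shSox9 libraries it stood at 17.1%, 16.6% and 13.7%. Sox9 of epithelial cells and Sox9 of 4T1 RNA thus cannot be told apart in these libraries. The labelled cell types were checked with fixed markers. Of 18 leukocyte markers (Ptprc, Laptm5, Tyrobp, C1qa and others, without Lyz2, which alveolar type 2 cells also express), 2 to 3 exceeded 1 TPM in cultures, 11 to 15 in vivo and 17 to 18 in epithelial libraries. Laptm5, Tyrobp, Cd53, C1qa, C1qb, Siglech and Cd3e were at 0 counts in all 3 cultures. The summed level of all 18 leukocyte markers was 15.7 to 19.97 TPM in vitro and 48.8 to 201 TPM in vivo. It was 449.7 to 772 TPM in distal, 4370.0 to 4899 TPM in niche and 369 to 1699 TPM in niche shSox9 libraries. The 8 alveolar type 2 markers summed to 329889 to 392505 TPM in distal, 19153 to 24851 TPM in niche and 68709 to 116332 TPM in niche shSox9 libraries, and the 6 fibroblast markers to 815 to 1025, 3919.8 to 4458 and 3489 to 5280.1 TPM. The epithelial libraries thus hold transcripts of leukocytes, most in the niche, and of fibroblasts, with both niche groups above the distal one. Of 5 epithelial markers, edgeR called 3 lower and 1 higher in niche than in distal libraries, and likewise in niche shSox9 libraries. Mean Epcam was 104, 56.0 and 28.1 CPM in distal, niche and niche shSox9 libraries, and mean Cdh1 296, 70.3 and 92.4 CPM. The mean of Krt8 went the other way, at 253, 376 and 398 CPM.

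The first comparison asked how 4T1 cells change while they grow in the lung. Nearly the whole antiviral program was higher in 4T1 cells from lung than in culture. edgeR called 43 of the 45 genes higher and none lower, while 27.0% of 14022 genes tested were called higher and 24.0% lower. The median log2 fold change was 2.51, against 0.01 over all genes tested, and 41 genes rose at least 2-fold. The largest edgeR adjusted p among the called genes was 0.0264. The 3 in vivo libraries lay above all 3 cultures for 43 genes and below them for none, against 31.5% and 28.7% of all genes. Markers of other cells rose too. Called higher were 13 of 15 leukocyte markers tested, 6 of 7 alveolar type 2, 5 of 5 endothelial and 5 of 5 fibroblast markers. From cultures to in vivo libraries the alveolar type 2 sum went from 9.19 to 15.9 TPM up to 124 to 212 TPM, the endothelial sum from 0.0600 to 0.220 up to 3.88 to 7.05 TPM and the fibroblast sum from 2.81 to 5.65 up to 11.8 to 13.2 TPM. Their part in the result was not tested. In bulk libraries such as these, fewer cells of a type and less RNA per cell cannot be told apart. The exceptions among the 45 were Trim25, a ubiquitin ligase of the RIG-I pathway, at -0.15 (SE 0.18, adjusted p = 0.502), and the exonuclease gene Isg20 at 0.10 (SE 0.13, adjusted p = 0.535).

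**Figure D1:**
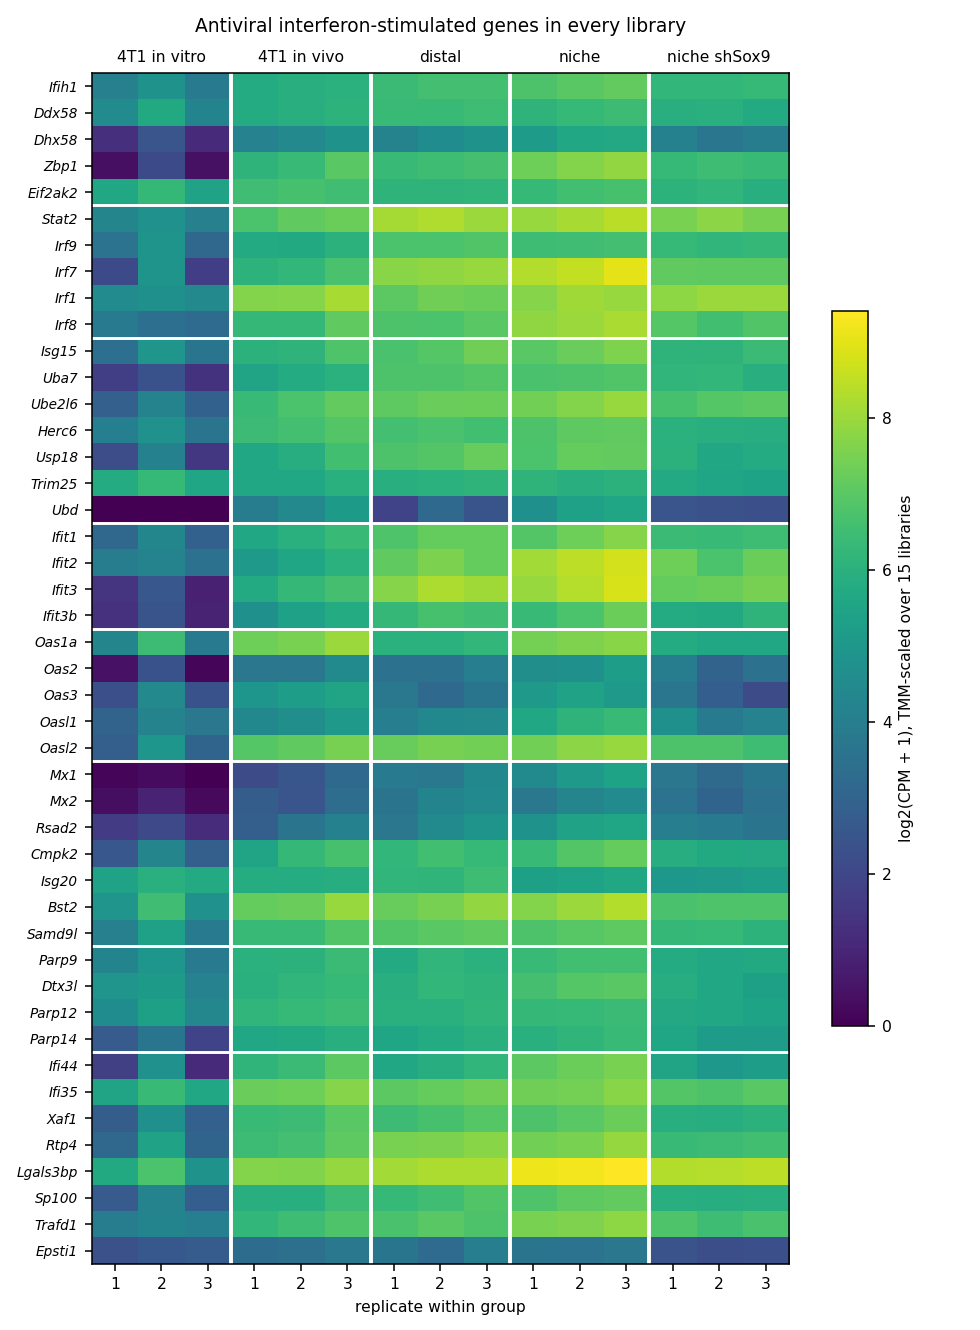
Level of each of the 45 genes (rows, grouped by role between white lines) in each of the 15 libraries (columns, by group and replicate), as log2(CPM + 1) on a colour scale from dark (low) to yellow (high). The 3 cultures form the dark block at the left, with replicate 2 lighter than the other 2, and the niche columns are the brightest for 35 of the 45 genes by group mean.

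The second comparison set epithelium of the niche against distal epithelium. Fewer of the genes were called there, and the changes were smaller. Of the 45, 30 were called higher and 1, Isg20, lower, where 28.5% of 17640 genes tested were called higher and 25.8% lower, and the largest edgeR adjusted p among the called genes was 0.0356. The median log2 fold change was 0.51, against 0.02 over all genes, and the niche libraries lay above all distal libraries for 23 of the 45 and below them for 2, against 30.5% and 33.3% of all genes. By edgeR all 5 OAS genes and all 4 genes of ADP-ribosylation were called but 1 of the 4 Ifit genes. On a TPM scale 44 of the 45 genes were called. With all 15 libraries in the edgeR fit 15 were called higher, at a median of 0.44 beside -0.04 over all genes. The share of all genes called in these alternative fits is not given here, so these counts alone do not set the 45 apart. The 14 genes that edgeR called in neither direction were Ddx58, Stat2, Irf9, Isg15, Uba7, Usp18, Trim25, Ifit1, Ifit3, Ifit3b, Mx2, Samd9l, Rtp4 and Epsti1. Leukocyte markers moved the same way, with 14 of 18 called higher and 2 lower, as did 5 of 6 fibroblast markers, while all 8 alveolar type 2 markers were called lower, and the part of these in the result was not tested. With limma on log2(TPM + 1), the median over all genes itself moved to 0.48. The 44 genes called there were all higher, and the median over the 45 was 1.08, which is 0.60 above the median of all genes, as against 0.49 by edgeR. Isg20 stood at -0.17 there (limma adjusted p = 0.196). Leaving out niche replicate 3 left 23 genes called higher and ended the calls of 7 (Oasl2, Rsad2, Cmpk2, Bst2, Parp14, Ifi35 and Xaf1, edgeR adjusted p = 0.0503 to 0.150). Without distal replicate 1 the calls of 6 were lost (Oasl2, Cmpk2, Bst2, Parp14, Ifi35 and Xaf1, 0.0646 to 0.140), and without distal replicate 2 or 3 or niche replicate 2 those of 3, 2 and 4 among Oasl2, Cmpk2, Bst2, Ifi35 and Xaf1 (0.0501 to 0.0846).

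The third comparison set the niche group labelled shSox9 against the niche. Here the genes fell together: 43 of 45 were called lower and none higher, where 10.8% of all genes tested were called lower and 9.68% higher. The median log2 fold change was -1.08, against 0.02 over all genes, and 25 genes fell at least 2-fold. Among the called genes the largest edgeR adjusted p was 0.0351. All niche shSox9 libraries lay below all niche libraries for 44 of the 45, against 19.9% of all genes. The genes not called were Irf1, at 0.03 (SE 0.12, adjusted p = 0.905), and Isg20, at -0.36 (SE 0.13, adjusted p = 0.0691). With the replicate letter as a block, Isg20 was called as well (edgeR adjusted p = 0.0204), which gave 44. That the letters pair the libraries was inferred from these data and is not in the labels. With all 15 libraries in the fit 28 genes were called lower, at a median of -1.08 beside 0.01 over all genes. Leukocyte markers fell too, 14 of 18 with 1 higher, while all 8 alveolar type 2 markers were called higher, and the part of either in the result was not tested. Without niche shSox9 replicate 1, whose leukocyte sum of 1699 TPM was the highest of its group, 43 genes were called and the median was -1.06. Calls of Ddx58, Eif2ak2, Irf9, Trim25 or Mx2 were lost when niche replicate 1, 2 or 3 or niche shSox9 replicate 2 or 3 was left out (2, 4, 4, 3 and 4 of them, edgeR adjusted p = 0.0511 to 0.123).

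**Figure D2:**
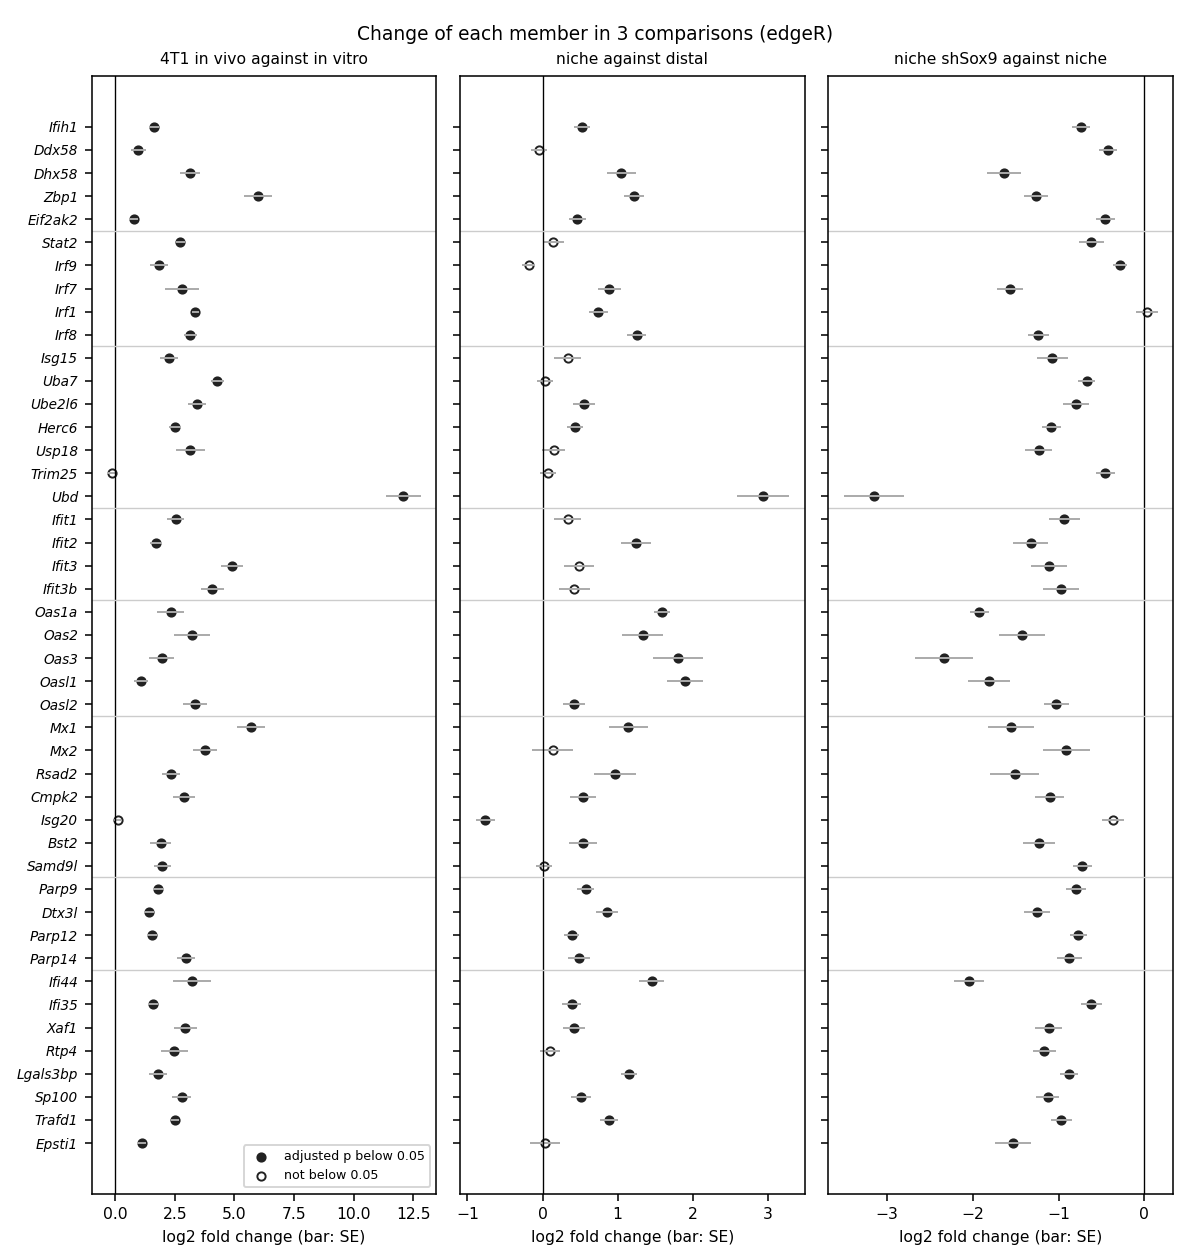
Log2 fold change (points) with its standard error (bars) of each of the 45 genes in 3 comparisons, by edgeR, with filled points for an adjusted p below 0.05 and grey lines between roles. Points lie right of 0 for nearly all genes in the left panel, between -0.76 and 2.93 in the middle panel and left of 0 for all but Irf1 in the right panel. The value of Ubd in the left panel, 12.07, rests on 0 counts in culture and depends on the fit.

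The nucleic acid sensors detect viral RNA or Z-form nucleic acid and start the interferon response. All 5 rose in vivo, 4 of 5 in the niche and all 5 fell in niche shSox9 libraries. Zbp1 (ENSMUSG00000027514, chromosome 2, 173206612 to 173218923), a sensor of Z-form nucleic acid that can trigger cell death, stood at 0.315, 3.28 and 0.335 CPM in the 3 cultures and at 68.1, 79.9 and 127 CPM in vivo. In epithelium it stood at 82.1, 88.9 and 98.3 CPM in distal, 159, 204 and 234 CPM in niche and 77.8, 88.8 and 82.1 CPM in niche shSox9 libraries. Culture replicate 2 was the highest culture but lay below every in vivo library, and niche libraries lay above all others in epithelium, where distal and niche shSox9 libraries overlapped. By edgeR its log2 fold change was 6.001 (SE 0.59, adjusted p = 4.74e-05) in vivo, 1.22 (SE 0.14, adjusted p = 2.78e-05) in the niche and -1.26 (SE 0.14, adjusted p = 0.000214) in niche shSox9 against niche libraries. Dhx58 (ENSMUSG00000017830, chromosome 11, 100694884 to 100704271) encodes LGP2, a helicase that tunes RIG-I and MDA5. It stood at 1.396, 4.56 and 1.22 CPM in vitro and 17, 20.5 and 27.4 CPM in vivo. Epithelial levels were 17.3, 23.1 and 27.2 CPM in distal, 35.3, 48.2 and 49.9 CPM in niche and 16.6, 11.8 and 14.5 CPM in niche shSox9 libraries. Cultures and in vivo libraries did not overlap, nor did any pair of epithelial groups, and its log2 fold changes in the same order were 3.14 (SE 0.41), 1.05 (SE 0.19) and -1.64 (SE 0.20). The other sensors moved less: Ifih1 (MDA5) by 1.64, 0.52 and -0.74, and Eif2ak2, the RNA-activated kinase that halts translation, by 0.78, 0.46 and -0.46. Ddx58, which encodes RIG-I, changed by 0.98 (SE 0.32, adjusted p = 0.0264) in vivo and was not called in the niche (-0.05, but 0.45 and called on the TPM scale). Its call in vivo was lost without culture replicate 1 or 3 or in vivo replicate 2 or 3 (edgeR adjusted p = 0.0873, 0.0679, 0.0647 and 0.0671).

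The transcription factors include Stat2 and Irf9, parts of the complex that binds the ISRE, and Irf7, which drives transcription of interferon genes. All 5 rose in vivo, 3 of 5 in the niche and 4 of 5 fell in niche shSox9 libraries. Irf7 (ENSMUSG00000025498, chromosome 7, 141262706 to 141266481) stood at 3.33, 28.2 and 2.39 CPM in the cultures and 66.4, 73.4 and 104 CPM in vivo. In epithelium it reached 211, 229 and 245 CPM in distal, 321, 374 and 514 CPM in niche and 139, 134 and 135 CPM in niche shSox9 libraries. The 3 niche shSox9 libraries were close to each other and below every distal library. edgeR gave 2.82 (SE 0.71, adjusted p = 0.00874) in vivo, 0.89 (SE 0.15, adjusted p = 0.000486) in the niche and -1.56 (SE 0.16, adjusted p = 0.000131) in niche shSox9 against niche libraries. Irf1 (ENSMUSG00000018899, chromosome 11, 53770014 to 53778374) took another course. Its levels were 22.1, 25.3 and 20.7 CPM in vitro, 203, 205 and 291 CPM in vivo, 130.3, 165 and 157 CPM in distal, 209, 267 and 246 CPM in niche and 222, 257 and 255 CPM in niche shSox9 libraries. Culture replicate 2 was only slightly above the others for Irf1, both niche groups lay above distal epithelium and overlapped each other, and the changes were 3.36 (SE 0.16), 0.74 (SE 0.13) and 0.03 (SE 0.12). Irf8 (ENSMUSG00000041515, chromosome 8, 120736358 to 120756694), a factor of macrophages and dendritic cells that interferon-gamma also induces, stood at 14.1, 9.72 and 8.72 CPM in vitro and 76.7, 76.2 and 137 CPM in vivo. Its epithelial levels were 108, 107 and 127 CPM in distal, 231, 252 and 294 CPM in niche and 121, 94.7 and 115 CPM in niche shSox9 libraries. In vivo replicate 3, which also had the highest leukocyte sum of its group (201 TPM against 48.8 and 68.0 TPM), was the highest, and distal and niche shSox9 libraries overlapped, and its log2 fold changes were 3.16 (SE 0.26) in vivo, 1.25 (SE 0.13) in the niche and -1.23 (SE 0.13) in niche shSox9 libraries. Stat2 and Irf9 rose in vivo by 2.74 and 1.82 but were not called in the niche (0.14 and -0.19, with 0.39 for Irf9 on the TPM scale), and they fell by 0.62 and 0.28 on the log2 scale in niche shSox9 libraries.

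**Figure D3:**
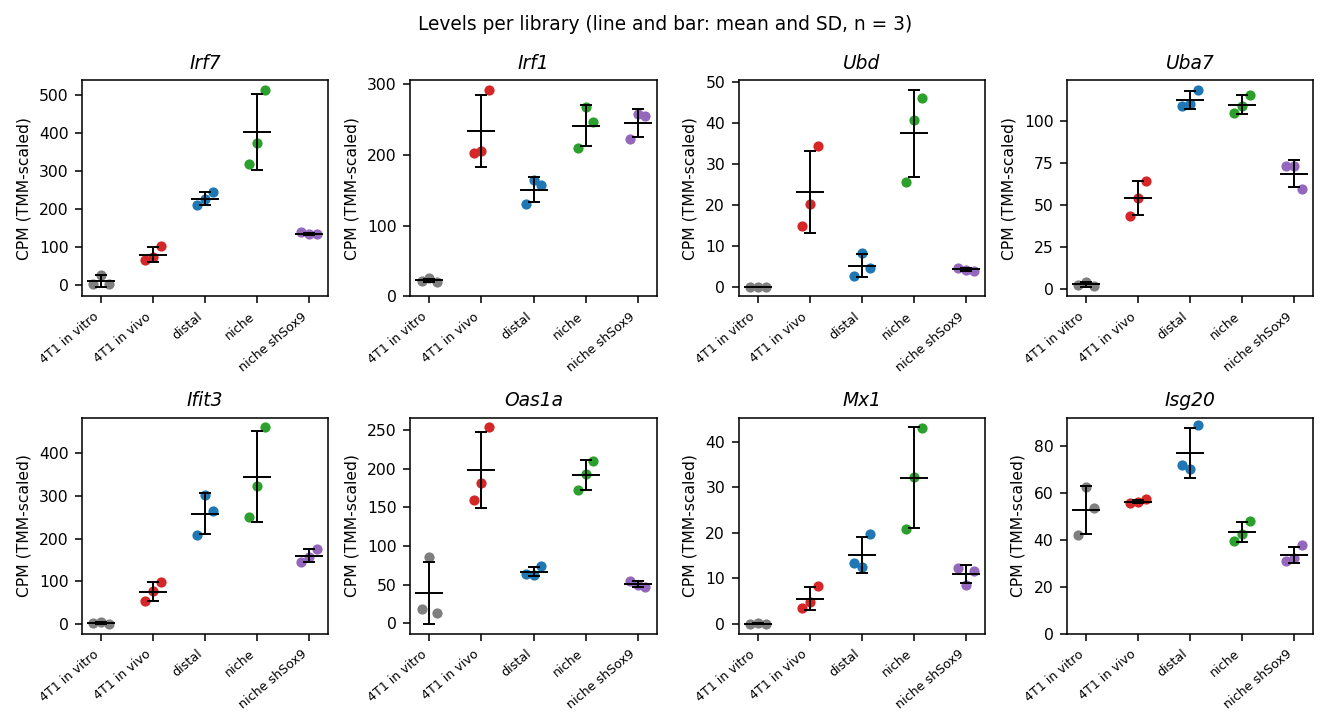
Levels in CPM (linear axes) of 8 of the genes in each library (points), with the mean and SD of each group of 3 libraries (lines and bars). Irf1 stays high in niche shSox9 libraries, Uba7 overlaps between distal and niche libraries, and Isg20 is highest in distal libraries, while Irf7, Ubd, Ifit3, Oas1a and Mx1 are highest in the niche or in vivo and lower in niche shSox9 libraries.

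ISG15 is a small protein that is joined to other proteins by an activating enzyme (Uba7), a conjugating enzyme (Ube2l6) and a ligase (Herc6 in mice) and removed by Usp18, which also dampens receptor signalling. In vivo 6 of these 7 genes rose, in the niche 3 of 7 rose, and all 7 fell in niche shSox9 libraries. Ubd (ENSMUSG00000035186, chromosome 17, 37193892 to 37196095), the ubiquitin-like modifier FAT10, had 0 counts in all 3 cultures, where 3 counts would be 0.0985 to 0.135 CPM. It stood at 14.9, 20.3 and 34.3 CPM in vivo, at least 584-fold higher against a floor of 3 counts over the cultures. In epithelium Ubd was at 2.68, 8.33 and 4.45 CPM in distal, 25.6, 40.7 and 46.02 CPM in niche and 4.64, 4.102 and 3.88 CPM in niche shSox9 libraries. Distal and niche shSox9 libraries overlapped, and every niche library lay above them, with changes of 2.93 (SE 0.35, adjusted p = 3.56e-05) in the niche and -3.15 (SE 0.35, adjusted p = 0.000213) in niche shSox9 libraries by edgeR. Uba7 (ENSMUSG00000032596, chromosome 9, 107975505 to 107984060) stood at 2.39, 4.203 and 1.59 CPM in vitro and 43.7, 54.4 and 64.1 CPM in vivo. Its levels in epithelium were 109, 109.9 and 118 CPM in distal, 105, 109 and 116 CPM in niche and 73, 73.4 and 59.6 CPM in niche shSox9 libraries. It rose 4.28 (SE 0.29) on the log2 scale in vivo, but distal and niche libraries overlapped, with a change of 0.03 (SE 0.10). Niche shSox9 libraries lay below both, with -0.67 (SE 0.10) against the niche. Ube2l6 (ENSMUSG00000027078, chromosome 2, 84798828 to 84810335) was at 6.44, 17.5 and 6.49 CPM in vitro, 80.3, 107 and 143 CPM in vivo, 133, 151 and 157 CPM in distal, 167, 203 and 246 CPM in niche and 101, 120.2 and 132 CPM in niche shSox9 libraries. Again cultures and in vivo libraries were apart, as were all epithelial groups, with log2 fold changes of 3.43 (SE 0.37) in vivo, 0.55 (SE 0.15) in the niche and -0.80 (SE 0.15) in niche shSox9 libraries. Herc6 (ENSMUSG00000029798, chromosome 6, 57581000 to 57664632) was at 15.6, 26 and 11.3 CPM in vitro, 87.2, 96.2 and 118 CPM in vivo, 95.6, 104 and 93.8 CPM in distal, 108, 132 and 136 CPM in niche and 62.8, 58.01 and 56.8 CPM in niche shSox9 libraries. Niche shSox9 libraries were the lowest of the epithelium, and its log2 fold changes were 2.51 (SE 0.25) in vivo, 0.43 (SE 0.11) in the niche and -1.08 (SE 0.11) in niche shSox9 libraries. Isg15 itself rose in vivo by 2.27 and Usp18 by 3.15. Neither was called in the niche (0.34 and 0.15), and their changes in niche shSox9 libraries were -1.07 and -1.23.

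The Ifit proteins bind foreign or unmodified ends of viral RNA, and their genes lie side by side on chromosome 19. All 4 rose in vivo and fell in niche shSox9 libraries, and in the niche only Ifit2 was called by edgeR, though all 4 were on the TPM scale. Ifit3 (ENSMUSG00000074896, chromosome 19, 34583531 to 34588731) stood at 1.71, 4.89 and 0.838 CPM in vitro and 53.5, 76.6 and 99.1 CPM in vivo. It was far higher in epithelium, at 208, 302 and 265 CPM in distal, 250.1, 325 and 461 CPM in niche and 146, 158 and 176 CPM in niche shSox9 libraries. Distal and niche libraries overlapped, and niche shSox9 libraries lay below both. Its log2 fold change was 4.89 (SE 0.46) in vivo, 0.49 (SE 0.20) in the niche and -1.11 (SE 0.21) in niche shSox9 against niche libraries. Ifit3b (ENSMUSG00000062488, chromosome 19, 34607970 to 34613401) followed it at 1.53, 4.498 and 0.8799 CPM in vitro, 25.3, 41.2 and 54.3 CPM in vivo, 76.4, 101 and 91.6 CPM in distal, 82.3, 107 and 155 CPM in niche and 54.4, 51.8 and 68.6 CPM in niche shSox9 libraries. Both share sequence: 41.1% of the 75-base words of Ifit3 transcripts also occur in Ifit3b and 35.7% the other way round, so how the counting split their reads is uncertain, with log2 fold changes of 4.08 (SE 0.47) in vivo, 0.42 (SE 0.21) in the niche and -0.98 (SE 0.21) in niche shSox9 libraries for Ifit3b. Ifit2 (ENSMUSG00000045932, chromosome 19, 34550694 to 34576419) shares no such word and differed from its neighbours. Its levels were 15.05, 17.4 and 10.5 CPM in vitro, 32.1, 45.7 and 63.8 CPM in vivo, 138, 188 and 143 CPM in distal, 273, 355 and 435 CPM in niche and 159, 107 and 158 CPM in niche shSox9 libraries. The niche libraries lay above all others, and all cultures below those from in vivo cells, and its log2 fold changes were 1.72 (SE 0.25, adjusted p = 0.000409) in vivo, 1.25 (SE 0.20, adjusted p = 0.000314) in the niche and -1.33 (SE 0.20, adjusted p = 0.00108) in niche shSox9 libraries by edgeR. Ifit1 changed by 2.53 in vivo, 0.34 in the niche, where it was not called, and -0.93 in niche shSox9 libraries.

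Enzymes of the OAS family sense double-stranded RNA and make short oligoadenylates that switch on RNase L, while Oasl1 lacks this activity and represses translation of Irf7 mRNA. All 5 rose in vivo and in the niche and all 5 fell at least 2-fold in niche shSox9 libraries. Oas1a (ENSMUSG00000052776, chromosome 5, 120896256 to 120907521) stood at 18.4, 85.6 and 13.9 CPM in vitro and 159, 181 and 253 CPM in vivo. Epithelial levels were 63.6, 63.1 and 74.2 CPM in distal, 172, 193 and 210.4 CPM in niche and 54.6, 49.4 and 47.5 CPM in niche shSox9 libraries. Culture replicate 2 was far above the other cultures, niche and in vivo libraries overlapped, and niche shSox9 libraries lay below all distal ones. edgeR gave 2.34 (SE 0.57, adjusted p = 0.00722), 1.59 (SE 0.11, adjusted p = 7.45e-07) and -1.92 (SE 0.11, adjusted p = 1.66e-05), and 47.6% of the 75-base words of Oas1a also occur in Oas1g, so its counts are uncertain. Oas2 (ENSMUSG00000032690, chromosome 5, 120730333 to 120749853) was at 0.3604, 4.14 and 0.0838 CPM in vitro, 12.2, 12.3 and 20.8 CPM in vivo, 10.4, 10.8 and 15.1 CPM in distal, 24.3, 25.6 and 37.6 CPM in niche and 15, 7.01 and 10.5 CPM in niche shSox9 libraries. Its distal and niche shSox9 libraries overlapped, with log2 fold changes of 3.21 (SE 0.76) in vivo, 1.33 (SE 0.27) in the niche and -1.43 (SE 0.27) in niche shSox9 libraries. Oas3 (ENSMUSG00000032661, chromosome 5, 120753098 to 120777661) was at 3.96, 20.4 and 4.15 CPM in vitro, 29.5, 37.6 and 44.4 CPM in vivo, 12.7, 8.401 and 11.6 CPM in distal, 33.4, 42 and 33.4 CPM in niche and 12.02, 5.96 and 3.55 CPM in niche shSox9 libraries. It fell by 2.33 (SE 0.34) on the log2 scale in niche shSox9 libraries, the largest fall after Ubd, and niche and in vivo libraries overlapped. For Oasl1 (ENSMUSG00000041827, chromosome 5, 114923240 to 114937915) the levels were 7.07, 17.6 and 12.2 CPM in vitro, 19.8, 24.2 and 33.5 CPM in vivo, 15.3, 20.1 and 20.6 CPM in distal, 48.5, 68.8 and 80.8 CPM in niche and 25.6, 13.6 and 17.3 CPM in niche shSox9 libraries. Its change was 1.07 (SE 0.29) in 4T1 cells and 1.89 (SE 0.24) in the niche, and the difference between these was not called by edgeR (-0.76, adjusted p = 0.151). Oasl2 (ENSMUSG00000029561, chromosome 5, 114896936 to 114912234) was at 6.13, 29.5 and 7.21 CPM in vitro, 121, 139 and 177 CPM in vivo, 148, 178 and 170.0 CPM in distal, 171, 216 and 246 CPM in niche and 110.2, 110.2 and 89.9 CPM in niche shSox9 libraries. Its distal and niche libraries overlapped, and its log2 fold changes were 3.34 (SE 0.50) in vivo, 0.42 (SE 0.14, adjusted p = 0.0271) in the niche and -1.02 (SE 0.14) in niche shSox9 libraries.

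Mx proteins are dynamin-like GTPases that trap viral particles, viperin (Rsad2) makes a nucleotide that stops viral polymerases, and tetherin (Bst2) holds budding virus at the membrane. In vivo 6 of these 7 genes rose, in the niche 4 rose and 1 fell, and 6 of 7 fell in niche shSox9 libraries. Mx1 (ENSMUSG00000000386, chromosome 16, 97447035 to 97462907) was nearly absent in culture, at 0.0901, 0.197 and 0 CPM, and reached 3.58, 4.78 and 8.399 CPM in vivo. In epithelium it stood at 13.3, 12.6 and 19.8 CPM in distal, 20.9, 32.2 and 43.1 CPM in niche and 12.4, 8.63 and 11.7 CPM in niche shSox9 libraries. The culture level rests on very few counts, all epithelial groups were apart from each other, and edgeR gave 5.69 (SE 0.60, adjusted p = 7.47e-05), 1.14 (SE 0.26, adjusted p = 0.00339) and -1.55 (SE 0.27, adjusted p = 0.00211). Mx2 (ENSMUSG00000023341, chromosome 16, 97535308 to 97560900) was at 0.2703, 0.919 and 0.168 CPM in vitro, 5.79, 4.596 and 9.41 CPM in vivo, 11.5, 18.1 and 21.6 CPM in distal, 12.6, 18.5 and 22.4 CPM in niche and 10.9, 7.203 and 10.3 CPM in niche shSox9 libraries. Its distal and niche libraries overlapped, with log2 fold changes of 3.78 (SE 0.51) in vivo, 0.13 (SE 0.27) in the niche and -0.91 (SE 0.27) in niche shSox9 libraries. The gene annotation lists Mx2 as a polymorphic pseudogene, and no protein was measured. Rsad2 (ENSMUSG00000020641, chromosome 12, 26442746 to 26456452) was at 2.16, 3.22 and 1.299 CPM in vitro, 6.26, 11.4 and 16.6 CPM in vivo, 12.1, 21.9 and 28.3 CPM in distal, 26.8, 42.3 and 46.9 CPM in niche and 15.5, 13.8 and 11.3 CPM in niche shSox9 libraries. The lowest niche library lay below the highest distal one, and its log2 fold changes were 2.34 (SE 0.39) in vivo, 0.97 (SE 0.28, adjusted p = 0.013) in the niche and -1.51 (SE 0.29) in niche shSox9 libraries. Isg20 (ENSMUSG00000039236, chromosome 7, 78913424 to 78920396), an exonuclease that degrades single-stranded RNA, differed from the rest. It stood at 42.2, 62.6 and 53.5 CPM in vitro, 55.8, 56.02 and 57.2 CPM in vivo, 72.1, 70.01 and 89.1 CPM in distal, 39.5, 42.5 and 48.1 CPM in niche and 31.1, 32.2 and 37.7 CPM in niche shSox9 libraries. The cultures and in vivo libraries overlapped, and distal libraries lay above all niche libraries, with a change of -0.76 (SE 0.13, adjusted p = 0.000409) in the niche by edgeR. Bst2, Cmpk2, a mitochondrial nucleotide kinase whose gene neighbours Rsad2, and Samd9l rose in vivo by 1.91, 2.88 and 1.98, and fell in niche shSox9 libraries by 1.23, 1.10 and 0.72 on the log2 scale. Per length, Bst2 had the highest level of all 45 genes in 4 of the 5 groups, at 107 ± 80.4 TPM in vitro, 413 ± 108 in vivo, 265 ± 63.7 in distal and 575 ± 118 in niche libraries (mean ± SD, n = 3). These values rank genes within a group. Between groups the scale matters, as mean Bst2 was 182 CPM in vivo and 187 CPM in distal libraries.

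The ADP-ribosylation genes encode Parp9 and its partner ligase Dtx3l, which act together on interferon signalling, and the transferases Parp12 and Parp14. All 4 rose in vivo and in the niche, and all 4 fell in niche shSox9 libraries. Parp9 (ENSMUSG00000022906, chromosome 16, 35938470 to 35972605) stood at 17.97, 29.6 and 13.4 CPM in vitro, 64.2, 65.1 and 84.4 CPM in vivo, 53.1, 72.8 and 64.04 CPM in distal, 83.2, 92.6 and 93.5 CPM in niche and 54.2, 49.5 and 51.2 CPM in niche shSox9 libraries. Dtx3l (ENSMUSG00000049502, chromosome 16, 35926511 to 35939151), which starts beside Parp9 on the opposite strand and overlaps it, stood at 28.9, 33.6 and 17.2 CPM in vitro, 61.9, 71.8 and 78.5 CPM in vivo, 59.5, 73.5 and 68.9 CPM in distal, 98.9, 119.8 and 129 CPM in niche and 57.95, 47.6 and 40.2 CPM in niche shSox9 libraries. Whether the counting used strand is not stated, so reads from the stretch they share cannot be told apart. Both moved alike, by 1.81 (SE 0.24) and 1.42 (SE 0.21) in vivo, 0.57 (SE 0.12) and 0.85 (SE 0.15) in the niche, and -0.80 (SE 0.12) and -1.25 (SE 0.15) in niche shSox9 libraries. Parp14 (ENSMUSG00000034422, chromosome 16, 35832874 to 35871544) stood at 5.59, 11.7 and 2.68 CPM in vitro, 47.7, 51.5 and 59.2 CPM in vivo, 45.2, 53.8 and 61.2 CPM in distal, 62.5, 71.1 and 80.7 CPM in niche and 45.7, 34.7 and 36.2 CPM in niche shSox9 libraries. It rose most of the 4 in vivo, by 2.97 (SE 0.38, adjusted p = 0.000228) by edgeR, and Parp12 changed by 1.54, 0.39 and -0.77 in the same order.

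Of the other 8 genes all rose in vivo, 6 in the niche, and all fell in niche shSox9 libraries. Ifi44 (ENSMUSG00000028037, chromosome 3, 151730922 to 151749960), a cytoplasmic protein linked to antiviral defence, stood at 2.43, 26.1 and 1.22 CPM in vitro and 70.9, 84.6 and 129 CPM in vivo. Its epithelial levels were 49.6, 57.8 and 72.02 CPM in distal, 130.0, 158 and 180.4 CPM in niche and 43.9, 31.5 and 38.2 CPM in niche shSox9 libraries. Culture replicate 2 again stood far above the others, and all epithelial groups were separate, with changes of 3.22 (SE 0.81, adjusted p = 0.00857), 1.45 (SE 0.17, adjusted p = 3.05e-05) and -2.04 (SE 0.17, adjusted p = 6.78e-05) by edgeR. Xaf1 (ENSMUSG00000040483, chromosome 11, 72301629 to 72313733), which promotes cell death, was at 5.86, 25.3 and 6.45 CPM in vitro, 80.5, 86.6 and 126 CPM in vivo, 85.7, 102 and 119.9 CPM in distal, 108, 127 and 157 CPM in niche and 58.7, 57.1 and 64.9 CPM in niche shSox9 libraries. Distal and niche libraries overlapped, with log2 fold changes of 2.95 (SE 0.48) in vivo, 0.42 (SE 0.15, adjusted p = 0.0356) in the niche and -1.12 (SE 0.15) in niche shSox9 libraries. Lgals3bp (ENSMUSG00000033880, chromosome 11, 118392751 to 118402092), a secreted galectin-binding protein, stood at 52.2, 106 and 26.5 CPM in vitro, 202, 196 and 239 CPM in vivo, 274, 305 and 304 CPM in distal, 575, 606 and 680.3 CPM in niche and 319, 332 and 359 CPM in niche shSox9 libraries. On the CPM scale it was, with Irf1, the only gene of the 45 whose niche shSox9 libraries all lay above the distal ones, and its log2 fold changes were 1.79 (SE 0.38) in vivo, 1.15 (SE 0.11) in the niche and -0.88 (SE 0.11) in niche shSox9 libraries. Rtp4 and Epsti1 were not called in the niche (0.09 and 0.03), yet they fell by 1.16 and 1.53 on the log2 scale in niche shSox9 libraries. Ifi35, the nuclear body protein Sp100 and Trafd1, a brake on Toll-like receptor signalling, changed by 1.59, 2.79 and 2.51 in vivo and by 0.39, 0.51 and 0.88 in the niche.

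In cultures, in vivo and in the niche 1 library was the highest of its group for nearly all genes, and in the other groups the genes were less alike. The median over the 45 genes was 7.79, 25.3 and 7.21 CPM in the 3 cultures and 58.7, 68.5 and 87.2 CPM in vivo. It was 82.5, 96.8 and 95.4 CPM in distal, 108, 127 and 141 CPM in niche and 62.8, 58.0 and 59.6 CPM in niche shSox9 libraries. Culture replicate 2 was the highest of the cultures for 42 of 45 genes, against 38.5% of all genes at 1 CPM or more, and stood more than 2-fold above both other cultures for 26 of them, against 0.521% of all genes. The median ratio to the mean of the other cultures was 2.72. Its leukocyte sum was 15.7 TPM, the lowest of the cultures, and without it 43 genes were still called, with a median log2 fold change of 3.14 in place of 2.51. In vivo replicate 3 was the highest for 44 of 45, against 42.8% of all genes, with a median ratio of 1.46 and the leukocyte sum of 201 TPM, whose part was not tested. Without it 42 genes were called, and the median log2 fold change was 2.34. In the niche, replicate 3 was the highest for 41 genes, against 37.5% of all genes, and replicate 1 the lowest for 43. The leukocyte sums of niche replicates 1 to 3 were 4622, 4370.0 and 4899 TPM and the sums of 5 epithelial markers (Epcam, Cdh1, Krt8, Krt18 and Krt19) 1303, 1393 and 616 TPM, and the part of neither was tested. Distal replicate 3 was the highest of its group for 29 genes and replicate 2 for 15, against 36.8% and 29.6% of all genes. Distal replicate 1 was the lowest for 34. Niche shSox9 replicates 1 to 3 were the highest for 26, 8 and 11 genes, against 38.3%, 28.0% and 33.7% of all genes. They were the lowest for 10, 20 and 15. For the lowest library no share of all genes is given here.

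**Figure D4:**
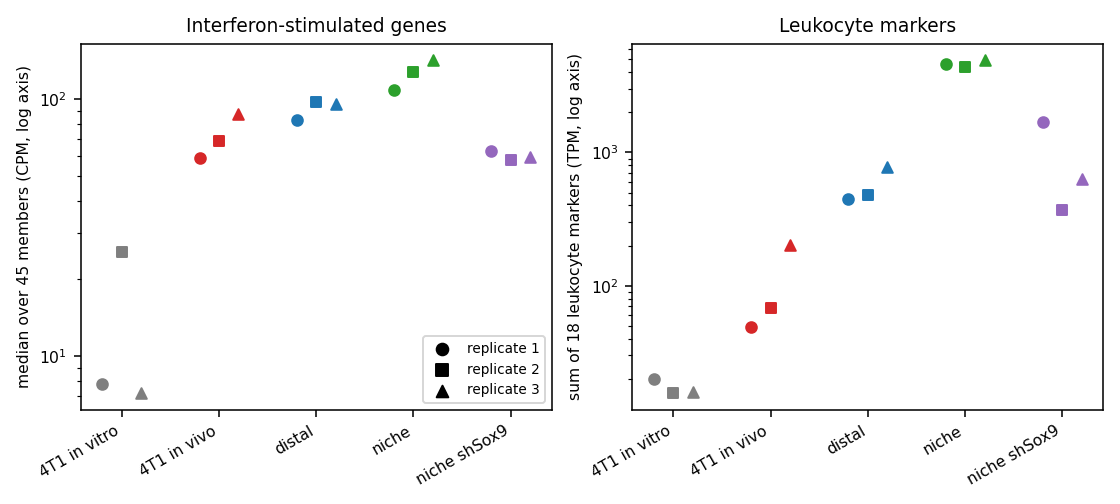
Left, median level of the 45 genes in each library (CPM, log axis); right, summed level of 18 leukocyte markers in the same libraries (TPM, log axis), with symbols for the replicates 1 to 3. Culture replicate 2 stands at 25.3 CPM with a leukocyte sum as low as that of the other cultures. The niche shSox9 libraries stand at 58.0 to 62.8 CPM, with leukocyte sums of 369 to 1699 TPM.

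RNA of one kind of cell in libraries of the other was estimated with genes abundant in one kind and at most 0.5 CPM in distal epithelium or in culture. Cells that switch such genes on in the niche, or in the lung, would be counted as RNA of the other kind, and this was not tested. A panel of 4 genes abundant in all 4T1 libraries stood at 22.7%, 26.6% and 13.1% of its in vivo level in niche libraries, at 17.1%, 16.6% and 13.7% in niche shSox9 libraries and at 0.260% to 0.942% in distal ones. With so few genes the share is rough. If all of it were 4T1 RNA, that RNA would supply a median of 12.2% of a gene's level in the niche (3.02% to 29.5%, the highest for Isg20). In niche shSox9 libraries it would supply a median of 20.4%, with 93.4% for Ubd, 87.0% for Oas3 and 66.6% for Oas1a. Niche replicate 3, with the lowest share of the niche libraries, had their highest levels for 41 genes. It also had their highest leukocyte sum and lowest sum of epithelial markers. The part of each of these in the levels was not tested. In the other direction, 321 genes abundant in epithelium stood at 0.499%, 0.627% and 1.00% of the niche mean in 4T1 cells from lung, which would supply a median of 1.21% of a gene's level there (0.501% to 4.89%).

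Niche shSox9 and distal libraries were compared as well, and this comparison shares its libraries with both comparisons above, so values are only set side by side. edgeR called 26 of 45 genes lower in niche shSox9 than in distal libraries and 1, Irf1 (0.77), higher, where 22.0% of all genes were called lower and 21.7% higher. With all 15 libraries in the fit, 8 were called lower, at a median of -0.55 beside -0.07 over all genes. All niche shSox9 libraries lay below all distal ones for 31 of the 45, against 30.2% of all genes. The median was -0.48, against -0.0047 over all genes. The largest falls were those of Epsti1 at -1.50 (SE 0.22), Isg20 at -1.12 (SE 0.13), Usp18 at -1.08 (SE 0.16) and Rtp4 at -1.07 (SE 0.14), while Zbp1 (-0.04), Irf8 (0.02), Ifit2 (-0.08) and Oasl1 (0.08) were not called. The direction depended on the scale: with limma on log2(TPM + 1), 4 genes were called lower and 10 higher, with a median of 0.07 beside a median over all genes of 0.44, a difference of -0.38. Calls were lost without distal replicate 2 or 3 or niche shSox9 replicate 1, 2 or 3 (7, 8, 2, 9 and 7 genes among Dhx58, Stat2, Trim25, Ifit1, Ifit3, Oas1a, Mx2, Cmpk2, Dtx3l and Ifi44, edgeR adjusted p = 0.0508 to 0.182), and without niche shSox9 replicate 2 the count was 17. Leukocyte sums in these groups overlapped, at 369 to 1699 and 449.7 to 772 TPM. Of 18 leukocyte markers 4 were called lower and none higher. All 8 alveolar type 2 markers were called lower, 5 of 6 fibroblast markers higher, and 3 of 5 epithelial markers lower with 1 higher. The part of these in the result was not tested.

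Cancer cells and epithelium from the same kind of lung were compared over all 15 libraries. In vivo 4T1 cells had lower levels than the niche for 22 of 45 genes and a higher level for 1, Isg20, where 36.0% of 18242 genes tested were called lower and 28.9% higher. The median was -0.89, against -0.10 over all genes. Called lower in 4T1 cells as well were all 18 leukocyte, all 8 alveolar type 2, all 6 endothelial and all 6 fibroblast markers. Of 5 epithelial markers 3 were called higher and none lower. The niche libraries thus hold RNA of several cell types, and its part in the result was not tested. All 4 Ifit genes were lower, with Ifit2 at -2.91 (SE 0.26) and Ifit3 at -2.18 (SE 0.35), as were Mx1 at -2.52 (SE 0.34) and Irf7 at -2.31 (SE 0.56). Among those not called were Irf1 (-0.05), Oas1a (0.05), Oas3 (0.03) and Parp12 (-0.02). By edgeR Isg20 differed by 0.38 (SE 0.14, adjusted p = 0.0244), and this call was lost without any one of the in vivo libraries or without niche replicate 1 or 2 (0.0624 to 0.122), with DESeq2 (0.119) and with RLE scaling (0.111). Calls of Zbp1, Irf9, Isg15 or Ube2l6 were lost without in vivo replicate 1 (4 of them) or 2 (3), or niche replicate 1 (1), 2 (1) or 3 (2), at adjusted p = 0.0512 to 0.104. By rank of group means, culture was the lowest group for 41 genes and niche shSox9 for 4. The niche was the highest for 35, distal for 6, in vivo for 3 and niche shSox9 for 1. Such ranks over all genes are not given here.

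Whether a gene rose more in 4T1 cells than in the niche was tested as the difference of both rises, which share no library. That difference was called above 0 for 35 of 45 genes and below 0 for none, where 29.1% of all genes were called above and 21.2% below. The median was 2.0, against 0.30 over all genes. Markers of other cells were called above 0 too. They were 9 of 18 leukocyte markers (2 below), all 8 alveolar type 2, all 6 endothelial and 4 of 6 fibroblast markers. None of 5 epithelial markers was called. The part of other cells in the difference was not tested. Of the 43 genes that rose in vivo, 30 rose in the niche as well and 13 were not called there. The 10 genes without a called difference were Eif2ak2, Trim25, Ifit2, Oas1a, Oas2, Oas3, Oasl1, Dtx3l, Ifi44 and Lgals3bp, so 4 of the 5 OAS genes are among them. On the log2 scale the difference was 4.31 (SE 0.31) for Uba7 and 4.47 (SE 0.54) for Ifit3. For Irf7 it was 1.99 (SE 0.78, adjusted p = 0.0451), and this call was lost whenever a library other than culture replicate 2 was left out (edgeR adjusted p = 0.0550 to 0.116). Ddx58, Rsad2 and Bst2 lost theirs without several single libraries: all 3 without culture replicate 1 or 3, in vivo replicate 3 or niche replicate 1 or 2, Ddx58 and Rsad2 without in vivo replicate 2, Rsad2 without distal replicate 2 and Rsad2 and Bst2 without distal replicate 3 (0.0610 to 0.142).

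Genes that make, receive and relay interferon signals were described from a list of 40. Of the 11 interferon ligand genes none passed the filter in 4T1 cells, and in epithelium only Ifng did. The highest level of the other 10 was 0.958 CPM, that of Ifnk in a distal library. Ifng stood at 1.21, 6.41 and 1.76 CPM in distal, 1.100, 1.53 and 0.372 CPM in niche and 0.293, 0.429 and 1.37 CPM in niche shSox9 libraries, and all 3 groups overlapped. edgeR called Ifng lower in niche shSox9 than in distal libraries, by -2.10 (SE 0.76, adjusted p = 0.0436), and not in the other epithelial comparisons. That call was lost without distal replicate 2, the highest library (-1.02, adjusted p = 0.309), without niche shSox9 replicate 1 or 2 (0.107 and 0.124), with the replicate block (0.0817) and on the TPM scale with limma (0.114). Ifna1 and Ifne had 0 counts in all 15 libraries. Of 27 pathway genes tested in 4T1 cells 16 were called higher and 3 lower in vivo, where 27.0% of all genes tested were called higher and 24.0% lower. Socs1, a feedback inhibitor of JAK kinases, changed by 2.55 (SE 0.24) in vivo, 1.42 (SE 0.14) in the niche and -1.07 (SE 0.14) in niche shSox9 libraries. Jak2, which relays interferon-gamma signals, rose by 1.83 in vivo and 0.84 in the niche but was not called in niche shSox9 libraries (-0.21). Socs3, a feedback inhibitor of interleukin-6 type receptors, rose in vivo (2.39) and was not called in either epithelial comparison.

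In epithelium 18 of 30 pathway genes tested were higher and 2 lower in the niche, against 28.5% and 25.8% of all genes tested. In niche shSox9 libraries 12 were lower than in the niche and none higher, against 10.8% and 9.68% of all genes. The receptor chain Ifnlr1, which binds interferon-lambda and marks epithelium, fell by 3.38 (SE 0.42) on the log2 scale in the niche, from 6.97, 7.44 and 7.36 CPM in distal to 0.264, 0.765 and 0.991 CPM in niche libraries. Ifngr2 and Ifnar1 rose there by 1.10 and 0.83. The endosomal receptors Tlr7 and Tlr9, which leukocytes express strongly, changed by 2.67 (SE 0.50) and 2.46 (SE 0.64) in the niche and by -2.44 (SE 0.48) and -3.04 (SE 0.65) in niche shSox9 libraries. The factor Irf5 and the phosphatase Ptpn6 changed by 1.94 (SE 0.29) and 2.03 (SE 0.25) in the niche and by -2.06 (SE 0.29) and -2.31 (SE 0.25) in niche shSox9 libraries. Among niche shSox9 libraries Tlr9 was highest where the leukocyte sum was. It stood at 3.96, 0.239 and 0.819 CPM beside sums of 1699, 369 and 630 TPM. The median of the 45 antiviral genes ranked these libraries alike, at 62.8, 58.0 and 59.6 CPM. Their summed level, at 3217, 3154 and 3001 TPM, did not. Nor did the medians rank like leukocyte sums in distal libraries (82.5, 96.8 and 95.4 CPM beside 449.7, 482 and 772 TPM). In niche libraries they did not either (108, 127 and 141 CPM beside 4622, 4370 and 4899 TPM). The part of leukocytes in the levels was not tested.

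**Figure D5:**
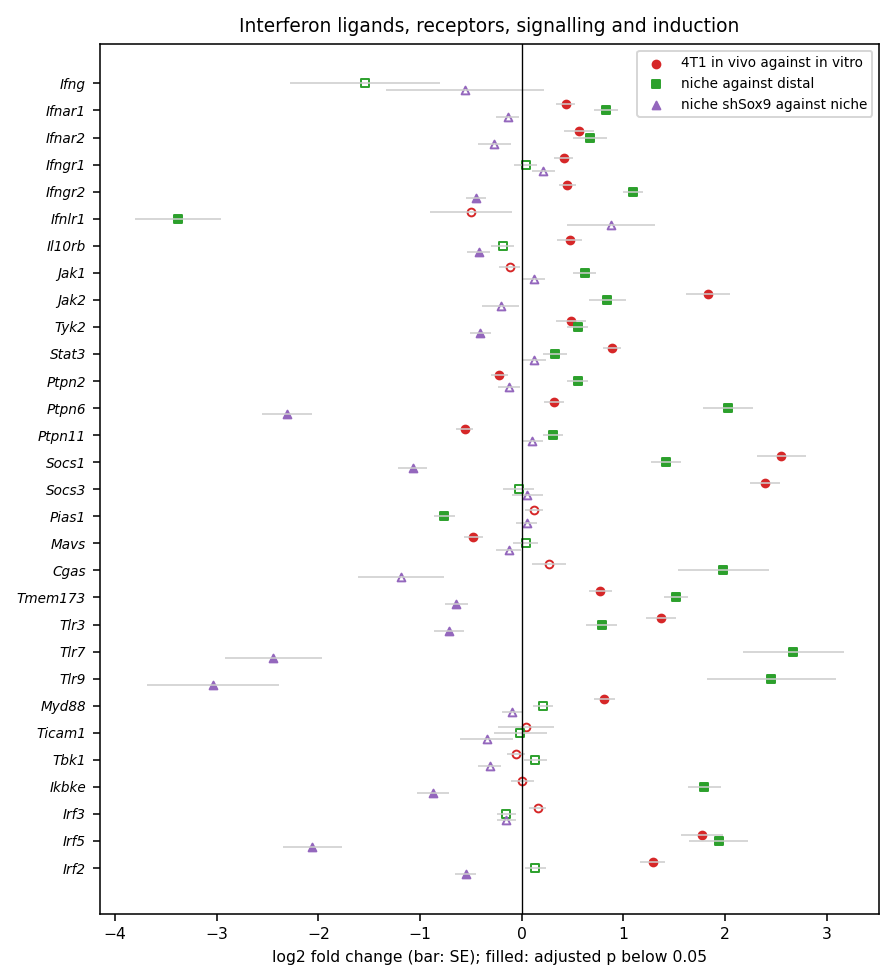
Log2 fold change (points) with its standard error (bars) of the 30 interferon ligand, receptor, signalling and induction genes tested, in 3 comparisons (red circles, 4T1 in vivo against in vitro; green squares, niche against distal; purple triangles, niche shSox9 against niche), by edgeR, with filled points for an adjusted p below 0.05. Socs1 stands at 2.55 in 4T1 cells, and Ifnlr1 is the largest fall in the niche, at -3.38.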

How the data were processed

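Total RNA was sequenced in 75-base reads from 15 libraries, and each library's group among the 5 was read from its labels. The authors deposited expected counts and TPM per Ensembl gene from RSEM on GRCm38, per the submitters' processing notes, which also name DESeq2. Versions, aligner, annotation and strand setting were not given in the sources used here. Symbols were matched by Ensembl identifier for 54723 of 54838 genes. Gene coordinates are those of the GENCODE annotation of GRCm38.

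The 45 genes and all marker and pathway lists were chosen with earlier results of these data known. A further gene of the pathway list is not reported here and enters no count of that list. Expected counts were rounded to whole numbers and tested with edgeR 4.0.16 in R 4.3.3: genes kept by filterByExpr, TMM scaling, the quasi-likelihood F-test, and Benjamini-Hochberg adjustment over all genes tested, with a threshold of 0.05. The 4T1 comparison was fitted on its 6 libraries, the epithelial comparisons on 9, and those across cell types on all 15. Levels are CPM, computed from the deposited expected counts, and the deposited TPM were used for marker sums, for levels between genes and with limma 3.58.1 on log2(TPM + 1). Standard errors are the log2 fold change divided by the root of its F statistic. Alternatives were DESeq2 1.42.0, RLE scaling, no filter, other sets of libraries, a replicate block and leaving out each library. The script was tested on simulated counts with known changes. Values in every library are given for the 2 genes of each role with the largest change among those called in 4T1 cells, and likewise in the niche, for genes called lower in either, and for the 6 with the smallest p in niche shSox9 against niche libraries. Other genes are given by fold change or count. On this TMM scale 3 counts are worth 0.0985 to 0.230 CPM, a floor that covers counting error only.

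Replicate letters of niche and niche shSox9 libraries were taken to pair them, since the deviations of libraries with the same letter from their group means correlated in every pair (r = 0.24, 0.17 and 0.25 over 12383 genes). The labels do not give this pairing. Over all pairs of groups compared, correlations of libraries with different numbers ran from -0.20 to 0.23. All library pairs within a group differed by more than sampling noise (chi-square per degree of freedom of 8.27 to 43.4).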

Additional observations from a re-analysis of the deposited data

Results flagged for a closer look

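The rise in 4T1 cells, from culture to lung, and the rise in lung epithelium, from distal to niche, are contrasts of different kinds, and for 35 of the 45 genes a test of the difference between them was past the threshold (edgeR, adjusted over all genes). In all 35 the rise in 4T1 cells was the larger. The same test also called above 0 all 8 alveolar type 2 and all 6 endothelial markers. Of 18 leukocyte markers it called 9 above and 2 below, and of 6 fibroblast markers 4 above. The part of such other cells in the differences was not tested. The values below are log2 differences of both rises, beside a median over all genes tested of 0.30.

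Among the sensors the difference was 1.17 for Ifih1, 1.09 for Ddx58, 2.15 for Dhx58 and 4.85 for Zbp1. Among the transcription factors it was 2.66 for Stat2, 2.07 for Irf9, 1.99 for Irf7, 2.68 for Irf1 and 1.97 for Irf8. In ISG15 conjugation it was 2.0 for Isg15, 4.31 for Uba7, 2.94 for Ube2l6, 2.14 for Herc6 and 3.06 for Usp18. The value of Ubd, 8.998, rests on 0 counts in the cultures and depends on how the fit treats them. Of the Ifit genes it was 2.26 for Ifit1, 4.47 for Ifit3 and 3.71 for Ifit3b, the last a pair that shares sequence, and of the OAS family 2.98 for Oasl2.

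Among the restriction factors the difference was 4.59 for Mx1, 3.69 for Mx2, 1.43 for Rsad2, 2.40 for Cmpk2, 1.43 for Bst2 and 2.02 for Samd9l. For Isg20 it was 0.93, from changes of 0.10 in 4T1 cells, which was not called, and -0.76 in the niche. In ADP-ribosylation it was 1.30 for Parp9, 1.21 for Parp12 and 2.55 for Parp14. Among the other genes it was 1.27 for Ifi35, 2.59 for Xaf1, 2.44 for Rtp4, 2.33 for Sp100, 1.69 for Trafd1 and 1.14 for Epsti1.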

How the results depend on the processing

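The count of genes called kept within 1.5 times its value in nearly all alternatives. With all 15 libraries in the fit, it was 15 in place of 30 in niche against distal, 28 in place of 43 in niche shSox9 against niche, and 8 in place of 26 in niche shSox9 against distal libraries, and the cause was not tested. In the last of these, limma on log2(TPM + 1) called 4 lower, and the cause was not tested. The share of all genes called in these alternative fits is not given here. Leaving out each library gave 42 to 43 genes for 4T1 in vivo against in vitro, 23 to 33 for niche against distal, 39 to 43 for niche shSox9 against niche, 17 to 30 for niche shSox9 against distal, 18 to 25 for 4T1 in vivo against niche and 31 to 42 for the difference of rises. The pathway genes called higher in vivo numbered 13 to 15, those higher in the niche 16 to 18, and those lower in niche shSox9 libraries 10 to 14.

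Of 3600 values for single genes under alternatives, 3199 kept their direction and side of the threshold, 213 lost the call and 84 gained one. The sign changed in 85 values that were called neither in the reported fit nor in the alternative, 45 of them on leaving out a library and 40 elsewhere, and in 19 that were called in at least 1 of both. All 19 are from limma on log2(TPM + 1), where the median over all genes moved to 0.48 in niche against distal and to 0.44 in niche shSox9 against distal libraries. In niche against distal they were Ddx58 at 0.45 and Irf9 at 0.39. In niche shSox9 against distal libraries they were Ifih1 at 0.53, Ddx58 at 0.0197, Dhx58 at 0.0567, Zbp1 at 0.55, Stat2 at 0.0676, Irf9 at 0.0957, Ube2l6 at 0.34, Herc6 at 0.0844, Trim25 at 0.15, Oas1a at 0.24, Cmpk2 at 0.0164, Parp9 at 0.38, Dtx3l at 0.16, Parp12 at 0.18, Ifi35 at 0.33, Sp100 at 0.0139 and Trafd1 at 0.43. The all-gene median also moved to -0.21 with RLE scaling in 4T1 in vivo against niche libraries, and to 0.12 with RLE and -0.28 on the TPM scale in the difference of rises.

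With the replicate block the counts were 43 for 4T1 cells, 32 for niche against distal, 44 for niche shSox9 against niche and 26 for niche shSox9 against distal. On only the 6 libraries compared, a block chosen after seeing the data gave 31, 44 and 22 for the epithelial comparisons. Correlations of deviations of 4T1 libraries with the same number were 0.06, -0.01 and 0.06, those of distal and niche 0.08, 0.05 and -0.07, and those of distal and niche shSox9 libraries -0.09, 0.13 and -0.10. Outside the niche pairs the numbers were thus taken as no more than names. With 1 mismatch allowed, an ISRE core stood before 30 of 36 genes (38.9% of all genes) and a GAS core before 30 (74.2%). A panel at a lower minimum of 10 CPM, chosen after seeing the data, gave a 4T1 share of 17.99% in niche shSox9 libraries in place of 15.8%, and none of the genes met a minimum of 50 CPM. Depth limits Mx1, Mx2, Oas2 and Ubd in culture, where single libraries held few or no counts.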
